A study of Mus musculus with 2 samples.

Results

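Tumour endothelial cells were chosen from 2 single-cell RNA libraries of subcutaneous Lewis lung carcinoma (LLC) tumours, a mouse lung cancer line. The anti-PD-1 library was made from tumours treated with an antibody that blocks PD-1, the T cell checkpoint receptor, and collected 7 days after treatment. The control library was made from tumours treated with an IgG2a isotype antibody, although the series text calls those cells untreated, and its day of collection is not stated. Each group is 1 library, and the sources used here do not give how many mice it pools. No test between groups was therefore possible, and each bracketed range is an exact 95% interval that covers counting error only.

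A member was a barcode with at least 5 UMIs (unique molecular identifiers, 1 per captured molecule) summed over Pecam1, Cdh5, Cldn5, Plvap, Egfl7 and Adgrl4, at least 1000 CPM (UMIs per 1000000 UMIs of the barcode) of these 6 rule genes, and at most 2 UMIs of the macrophage genes C1qa and C1qb. It also had at least 300 genes, at most 20% mitochondrial UMIs and less than 500 CPM of the LLC markers Hmga2, Igf2bp1, Igf2bp2 and Wnt7b. These values chose the members, so the levels of the rule genes are a description. There were 33 members of 9422 filtered barcodes in the anti-PD-1 library and 42 of 8395 in the control library, or 75 of 17817 in all.

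Endothelial cells line blood vessels. In tumours, sprouts are led by tip cells, which make Esm1, Apln, Dll4 and Angpt2 under VEGF signalling and lay down a collagen IV and laminin basement membrane. Venous and postcapillary endothelium carries the selectins P and E and the receptor Ackr1, through which leukocytes leave the blood. Interferon gamma from T and NK cells makes endothelium express guanylate-binding proteins, Cxcl9, Cxcl10 and more MHC, all of which bear on T cell entry and recognition.

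The members made up 0.35% (0.241 to 0.492) of anti-PD-1 barcodes and 0.5% (0.361 to 0.676) of control barcodes. The difference was -0.15 percentage points, with an interval of -0.357 to 0.0485 that includes 0. Of barcodes below the LLC marker limit, members made up 1.14% in the anti-PD-1 library and 1.38% in the control library. The limits on LLC and macrophage markers removed endothelial barcodes unequally. Without either limit, 50 anti-PD-1 barcodes (0.531%) and 126 control barcodes (1.5%) met the endothelial part of the rule. The barcodes that a limit removed numbered 17 with a median of 4747 UMIs in the anti-PD-1 library and 84 with a median of 20878 UMIs in the control library. A C1qa or C1qb UMI was found in 69.7% of anti-PD-1 LLC tumour barcodes and in 79.5% of control LLC tumour barcodes, cells that should lack these genes. Endothelial identity genes had a median log2 ratio of -1.34 in LLC tumour barcodes, so those of the control library carried more of them too. Whether the removed barcodes held several cells was not tested.

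The members held 203924 UMIs in the anti-PD-1 library and 245942 in the control library. A member had between 837 and 45673 UMIs with a median of 4020 in the anti-PD-1 library, and between 592 and 24065 with a median of 4584.5 in the control library. A single anti-PD-1 barcode held 22.4% of that library's member UMIs, while the deepest control barcode held 9.78%. Among the 45673 UMIs of that anti-PD-1 barcode 74 were of leukocyte markers. The median in anti-PD-1 members with at least 3 rule genes was 1.5, at a median depth of 4713.5 UMIs. Whether the barcode held several cells was not tested. Of all barcodes, 107 sequences occurred in both libraries, and none of them was a member. Just inside the rule, 5 anti-PD-1 and 3 control members had exactly 5 UMIs of the rule genes, and 3 anti-PD-1 and 4 control barcodes stood just outside with 4. The lowest members had 1818 CPM of the rule genes in the anti-PD-1 library and 1113 CPM in the control library. The C1q limit was met exactly, with 2 UMIs, by 5 anti-PD-1 and 14 control members, and 1 anti-PD-1 and 7 control barcodes stood just outside it with 3.

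Most members matched the endothelial label, and a minority did not. At least 3 of the 6 rule genes were detected in 28 of 33 anti-PD-1 members and 35 of 42 control members, and all 6 in 20 anti-PD-1 and 23 control members. The 10 other endothelial markers (Kdr, Tie1, Emcn, Erg, Sox17, Sox18, Robo4, Ecscr, Eng and Esm1), which the rule did not use, gave at least 1 UMI in 30 anti-PD-1 and 37 control members. In members with at least 3 rule genes they summed to a median of 36 UMIs in the anti-PD-1 library and 29 in the control library. Pecam1 was the only rule gene in 5 anti-PD-1 and 6 control members. Pecam1 encodes CD31, which leukocytes and platelets also carry, and 4 of these 5 anti-PD-1 barcodes and 5 of these 6 control barcodes had UMIs of Ptprc, the pan-leukocyte antigen CD45. None of the 11 had more than 1 UMI of the other endothelial markers.

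**Figure D1:**
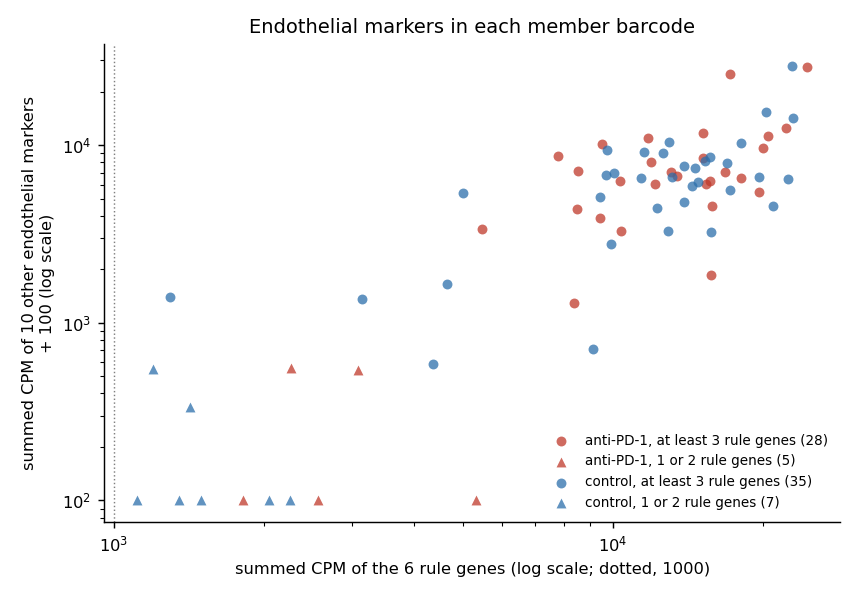
Each point is 1 member barcode, with the summed CPM of the 6 rule genes on the horizontal log axis and that of 10 other endothelial markers plus 100 on the vertical log axis, red for anti-PD-1 and blue for control. Circles, with at least 3 rule genes (28 anti-PD-1 and 35 control), lie mostly in the upper right, while the triangles, with 1 or 2 rule genes, lie at or near 0 of the other markers.

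Markers of other cell classes were low in the members beside their levels in the classes themselves. This was partly fixed in advance. The rule limits the LLC markers, C1qa and C1qb in members, and each class was assigned by its own markers. Macrophage markers summed to 308.9 CPM in anti-PD-1 members and 447.3 CPM in control members, while macrophages had 18280 CPM in the anti-PD-1 library and 11820 CPM in the control library. T cell markers were near 0, with 3 UMIs in anti-PD-1 members and 9 in control members. Pericyte and smooth muscle markers were at 362.9 CPM in anti-PD-1 members, with 32 of 74 UMIs in 1 barcode, and at 44.73 CPM in control members, and the pericyte gene Rgs5 gave 10 UMIs in anti-PD-1 members and 0 in control members. Red cell markers were at 88.27 CPM in anti-PD-1 members and 593.6 CPM in control members, and platelet markers at 34.33 CPM in anti-PD-1 members and 284.6 CPM in control members. The platelet gene Pf4 gave 5 UMIs in anti-PD-1 members and 55 in control members, 37 of them in 1 barcode. Of the lymphatic markers, the master regulator Prox1 and the genes Reln and Ccl21a were at 0 UMIs in the members of both libraries, and Lyve1 had 3 UMIs in anti-PD-1 and 9 in control members. The list of 7 summed to 50 UMIs in anti-PD-1 and 64 in control members. Most were of Flt4, a VEGF receptor that tumour blood vessels also make, with 44 UMIs in anti-PD-1 and 41 in control members. The part of these admixed markers in the results below was not tested, except where values without the barcodes concerned are given.

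**Figure D2:**
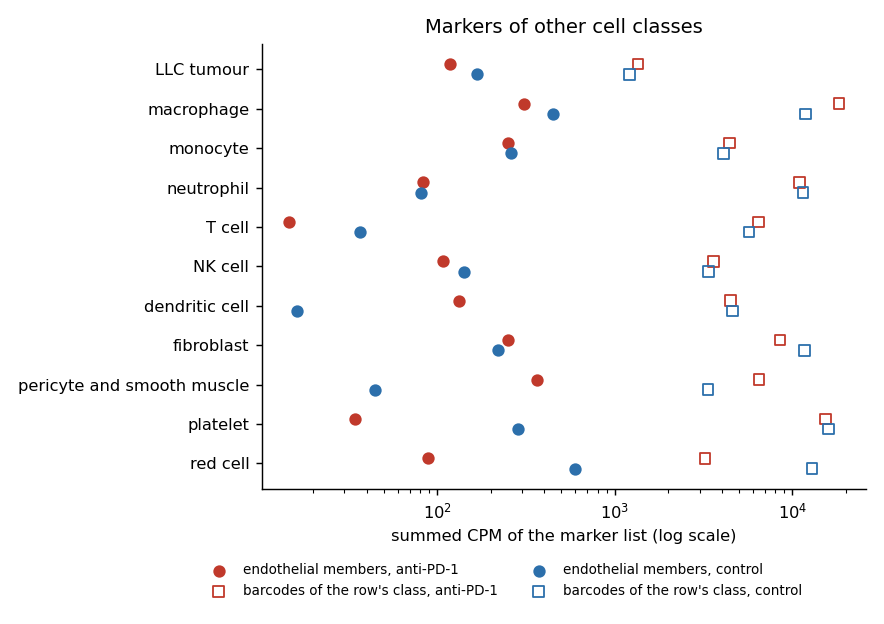
Filled circles give the summed CPM of each marker list in endothelial members and open squares the same list in barcodes of its own class, on a log axis, red for anti-PD-1 and blue for control. Every filled circle lies left of the squares of its row, by the smallest distance for LLC tumour markers, and red cell and platelet markers lie further right in control members. The order within a row was partly fixed by the rule and by assigning each class with its own markers.

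Among 2019 genes with at least 50 UMIs over the members of both libraries, 468 (23.2%) were over 2-fold higher in members than in all other filtered barcodes in each library. The 15 genes outside the rule with the highest ratios in the library where the ratio was lower were Prnd, Chga, Cyyr1, Adamts9, Dll4, Ldb2, Nfib, Angpt2, Adcy4, Robo4, Tspan7, Ptprb, Kcnq1, Ramp2 and Tie1. Dll4 encodes the Notch ligand of tip cells, Angpt2 the Tie2 ligand that loosens vessels, Robo4 a guidance receptor of endothelium, Ptprb the phosphatase VE-PTP, and Ramp2 the partner of the adrenomedullin receptor. Tie1, an orphan receptor of the Tie family, was at 917 CPM in anti-PD-1 members and 666.8 CPM in control members. Robo4 was at 666.9 CPM in anti-PD-1 members and 589.6 CPM in control members. The tip cell product endocan, Esm1, had 263 UMIs in anti-PD-1 and 289 in control members, or 1290 CPM in anti-PD-1 and 1175 CPM in control members. These 3 endothelial genes, Tie1, Robo4 and Esm1, had log2 ratios of anti-PD-1 over control of 0.46 (0.15 to 0.77), 0.18 (-0.17 to 0.53) and 0.13 (-0.11 to 0.38).

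The 250 bases upstream of their starts are shown because ETS factors such as ERG, itself an endothelial marker here, bind motifs with the core GGAA. The sequences come from RefSeq on GRCm38.p6, the assembly also called mm10, and read 5′ to 3′ along each gene's strand. Capitals mark the motif CAGGAA or its reverse complement TTCCTG. Tie1 lies on the minus strand (chr4:118489850-118490099), Esm1 on the plus strand (chr13:113209409-113209658) and Robo4 on the plus strand (chr9:37401722-37401971).
Tie1: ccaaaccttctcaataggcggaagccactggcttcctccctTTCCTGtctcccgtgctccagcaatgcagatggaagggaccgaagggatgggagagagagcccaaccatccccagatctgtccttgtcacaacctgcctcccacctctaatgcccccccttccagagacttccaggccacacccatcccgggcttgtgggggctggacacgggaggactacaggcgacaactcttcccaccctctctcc
Esm1: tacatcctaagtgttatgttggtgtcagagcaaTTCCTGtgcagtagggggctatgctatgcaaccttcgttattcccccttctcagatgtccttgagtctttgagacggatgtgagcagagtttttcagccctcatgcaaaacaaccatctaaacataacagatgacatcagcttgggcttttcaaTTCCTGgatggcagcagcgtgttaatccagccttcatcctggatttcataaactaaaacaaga
Robo4: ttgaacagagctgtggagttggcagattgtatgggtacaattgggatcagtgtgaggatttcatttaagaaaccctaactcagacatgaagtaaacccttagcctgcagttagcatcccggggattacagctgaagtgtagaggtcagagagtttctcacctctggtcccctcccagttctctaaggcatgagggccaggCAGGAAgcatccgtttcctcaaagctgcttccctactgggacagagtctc
The motif occurred once in Tie1, 2 times in Esm1 and once in Robo4. It was present in 6866 of 27025 promoters of that length (25.4%), so a match is common and describes letters, not binding.

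Between the libraries most of the 2019 genes lay within 2-fold in the members, and their median log2 ratio was 0.015. More than 2-fold separated the libraries for 146 genes (7.23%). Of these, 54 (2.67% of the measured genes) were higher and 92 (4.56%) lower in anti-PD-1 members than in control members. Of the 6 rule genes, none was past 2-fold. Their log2 ratios lay between -0.33 for Cldn5, a claudin of the tight junction (0.17 without the LLC and macrophage limits), and 0.47 for Cdh5, the cadherin of the endothelial adherens junction. Of 725 genes with at least 100 UMIs, 48 were over 5 times higher in another cell class and were not ranked. The lowest ratios among these 48 were those of Gzmc and Cxcl10 and the highest those of Plaur and Fscn1.

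**Figure D3:**
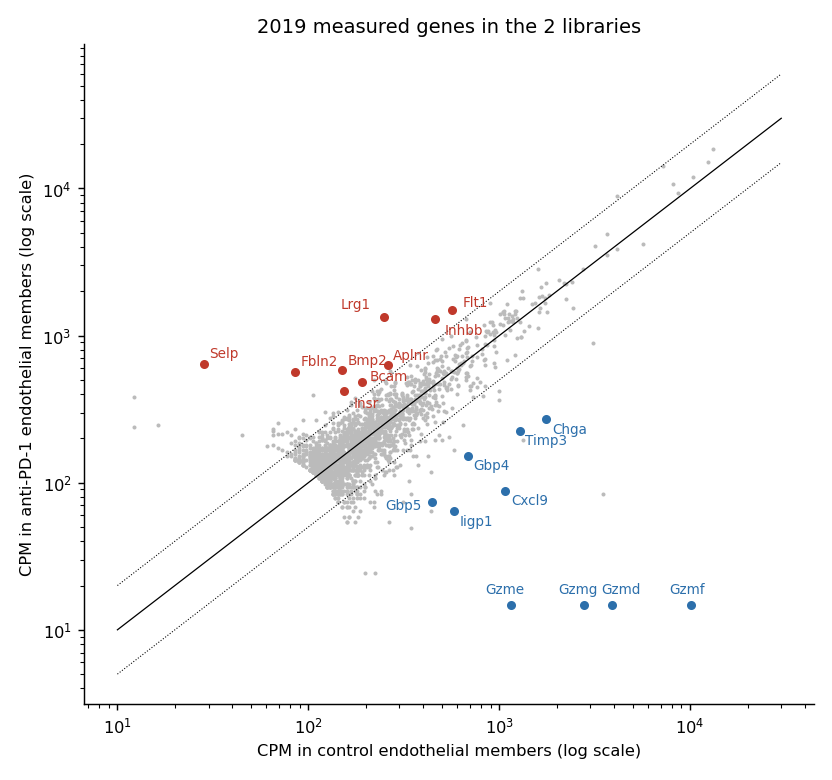
Each point is 1 of 2019 genes, with its CPM in control members on the horizontal log axis and in anti-PD-1 members on the vertical log axis. Values below 3 UMIs are drawn at 3 UMIs, the solid line marks equal levels and the dotted lines 2-fold, and the named genes with the highest (red) and lowest (blue) ratios stand apart from the cloud, the granzymes farthest below it.

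Genes of the interferon gamma response were lower in the anti-PD-1 members without exception among those measured. All 17 measured genes of 30 on the list lay below the median gene, and 12 were over 2-fold lower, where 4.56% of all measured genes were. The list median was -1.58 on the log2 scale, against 0.015 for all genes, and -0.85 over the same genes without the LLC and macrophage limits. Over single barcodes, the summed level of the list ran from 0 to 10350 CPM with a median of 2344 CPM in anti-PD-1 members, and from 0 to 32370 CPM with a median of 6048 CPM in control members. The ranges overlapped, and the highest control barcodes lay above every anti-PD-1 barcode. In members with at least 3 rule genes the medians were 2048 CPM in the anti-PD-1 library and 7518 CPM in the control library. The same list had a median log2 ratio of -0.997 in LLC tumour barcodes and -0.74 in macrophages. It was therefore lower outside the endothelium as well, and no test of a difference between the cell classes was possible.

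Cxcl9, a chemokine that draws T cells through CXCR3, had 18 UMIs in 6 anti-PD-1 members and 265 UMIs in 22 control members, or 88.27 CPM in anti-PD-1 and 1077 CPM in control members. It lies on chromosome 5 (chr5:92321331-92328079). Its log2 ratio was -3.61 (-4.39 to -2.92), and -2.13 without the LLC and macrophage limits. A Cxcl9 UMI was found in 18.2% of anti-PD-1 members (6.98 to 35.5) and 52.4% of control members (36.4 to 68.0). In T cell barcodes, which should lack it, the shares were 0.0% in the anti-PD-1 library and 5.98% in the control library, at median depths of 1449 and 1685 UMIs. With each member thinned to 2000 UMIs, which 24 anti-PD-1 and 38 control members had, the shares were 20.8% in the anti-PD-1 library and 44.7% in the control library.

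Iigp1, an interferon-inducible GTPase of cell-autonomous immunity, had 13 UMIs in 3 anti-PD-1 members and 143 UMIs in 21 control members, with a log2 ratio of -3.19 (-4.13 to -2.37), and -1.99 without the LLC and macrophage limits. At least 2 UMIs of both Cxcl9 and Iigp1 were found together in 1 anti-PD-1 and 11 control members. The guanylate-binding proteins were lower too. Gbp5 had 15 UMIs in anti-PD-1 and 109 in control members (log2 ratio -2.59), Gbp4 had 31 in anti-PD-1 and 168 in control members (-2.17), and Gbp2 had 34 in anti-PD-1 and 142 in control members (-1.79). Without the LLC and macrophage limits the ratios were -1.70 for Gbp5, -1.32 for Gbp4 and -1.44 for Gbp2. Irf1, a transcription factor of the pathway, gave 21 UMIs in anti-PD-1 and 83 in control members (-1.71, and -1.02 without the LLC and macrophage limits), and it was named, as Gbp2 and Col4a1 were, after its values were seen. The T cell chemokine Cxcl10 had 13 UMIs in anti-PD-1 and 108 in control members (-2.78), and a ratio of -0.85 without the LLC and macrophage limits. Of the control UMIs 47 lay in a single barcode, and the gene was 6.19 times higher in monocytes than in endothelium.

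The upstream 250 bases of 4 of these genes are shown because interferon gamma acts on genes through gamma-activated sites and, by IRF factors, through interferon-stimulated response elements. Capitals mark the letters TTCNNNGAA, or the response element spelled as GAAA, any 2 bases and GAAA, on either strand. Cxcl9 lies on the minus strand (chr5:92328080-92328329), Gbp5 (chr3:142496684-142496933), Gbp2 (chr3:142620413-142620662) and Irf1 (chr11:53769764-53770013) on the plus strand.
Cxcl9: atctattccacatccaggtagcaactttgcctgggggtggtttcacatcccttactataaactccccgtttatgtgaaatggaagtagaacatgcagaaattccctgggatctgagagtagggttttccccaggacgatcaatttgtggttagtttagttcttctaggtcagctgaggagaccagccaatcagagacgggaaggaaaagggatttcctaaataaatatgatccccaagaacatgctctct
Gbp5: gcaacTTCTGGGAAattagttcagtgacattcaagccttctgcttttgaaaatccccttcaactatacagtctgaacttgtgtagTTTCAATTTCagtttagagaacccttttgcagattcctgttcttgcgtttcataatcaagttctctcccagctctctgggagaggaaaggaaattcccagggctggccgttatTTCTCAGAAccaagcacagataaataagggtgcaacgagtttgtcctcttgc
Gbp2: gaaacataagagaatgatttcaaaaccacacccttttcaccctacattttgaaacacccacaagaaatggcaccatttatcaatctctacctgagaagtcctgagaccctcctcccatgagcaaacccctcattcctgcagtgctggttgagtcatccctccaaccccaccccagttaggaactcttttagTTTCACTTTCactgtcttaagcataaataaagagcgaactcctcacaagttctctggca
Irf1: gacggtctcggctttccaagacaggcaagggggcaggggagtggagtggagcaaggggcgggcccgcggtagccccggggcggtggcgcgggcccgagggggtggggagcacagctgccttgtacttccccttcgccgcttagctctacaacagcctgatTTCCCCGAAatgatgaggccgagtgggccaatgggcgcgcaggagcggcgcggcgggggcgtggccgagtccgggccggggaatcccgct
The first motif occurred 2 times in Gbp5 and once in Irf1, and the second once each in Gbp5 and Gbp2, with no overlap between them. Neither occurred in the Cxcl9 window, which says only that these letters are not in it. On both strands, TTCNNNGAA was present in 7.18% and the response element in 3.04% of the 27025 promoters.

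Interferon gamma also governs antigen presentation. Of 13 measured MHC class I genes, 11 lay below and 2 above the median gene, with a median log2 ratio of -0.42, and none passed 2-fold. H2-D1, a classical class I chain, had 140 UMIs in anti-PD-1 and 270 in control members (-0.68), and the peptide transporter gene Tap1 had 92 in anti-PD-1 and 174 in control members (-0.65). All 4 measured MHC class II genes lay below the median gene and 3 of them were over 2-fold lower (background 4.56%), with a median log2 ratio of -1.35. These 4 genes were between 11.75 (Cd74) and 17.34 (H2-Aa) times higher in dendritic cells than in members. Cd74, the invariant chain, had 183 UMIs in anti-PD-1 members, 126 of them in 1 barcode, and 758 UMIs in control members, 255 of them in 1 barcode, with a log2 ratio of -1.78, and -0.61 with barcodes thinned to 2000 UMIs. The class II median was -3.16 without Pecam1 in the rule, -0.52 with barcodes weighted equally and -0.87 without the LLC and macrophage limits. Of 9 measured type I interferon genes, 7 lay above the median gene, with a median log2 ratio of 0.16 that was -0.55 over the 23 genes measured with no limit on C1qa and C1qb. Bst2, the virus-tethering protein tetherin, was at 1461 CPM in anti-PD-1 members and 1057 CPM in control members (0.47, 0.22 to 0.71). Cd274, which encodes PD-L1, gave 3 UMIs in 3 anti-PD-1 members and 32 UMIs in 11 control members. Its log2 ratio was -3.145 (-5.50 to -1.47), and -1.03 without the LLC and macrophage limits. The share of members with a Cd274 UMI was 9.09% in the anti-PD-1 library and 26.2% in the control library. In T cell barcodes the shares were 27.5% in the anti-PD-1 library and 23.9% in the control library, and whether these are a background for the gene was not tested. Cd274 had fewer than 50 UMIs, so it was not among the measured genes and is not read as a difference.

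The 10 genes with the lowest ratios held 4 granzymes, whose UMIs lay in at most 14 control barcodes each. Gzmf, Gzmd and Gzme had 2, 1 and 1 UMIs in anti-PD-1 members and 2493, 963 and 282 UMIs in control members. Gzmg had 0 UMIs in anti-PD-1 members and 682 in control members. The control barcodes with Pecam1 as their only rule gene held 1989 of the 2493 Gzmf UMIs, and without Pecam1 in the rule the log2 ratio of Gzmf was -3.56. These proteases are made by NK and cytotoxic T cells. NK cell markers summed to 107.9 CPM in anti-PD-1 and 142.3 CPM in control members, and in those with at least 3 rule genes to 0.0 CPM in anti-PD-1 and 14.17 CPM in control members.

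Chga and Timp3 were lower in anti-PD-1 members, and endothelium had more of them than other classes did. The next highest class reached 0.0768 times the endothelial CPM for Chga and 0.137 times for Timp3. In LLC tumour barcodes their log2 ratios were -3.73 and -1.996, at low levels. Chga was at 0.728 CPM in anti-PD-1 and 9.654 CPM in control LLC tumour barcodes, and Timp3 at 1.358 CPM in anti-PD-1 and 5.416 CPM in control ones. Endothelial identity genes also had a median log2 ratio of -1.34 in these barcodes. Whether the UMIs of Chga and Timp3 there came from tumour cells was not tested. Chga encodes chromogranin A, a secretory granule protein whose fragments act on vessels, on chromosome 12 (chr12:102554941-102565027). It had 55 UMIs in 11 anti-PD-1 members and 434 UMIs in 19 control members, 269.7 CPM in anti-PD-1 against 1765 CPM in control members, with a log2 ratio of -2.71 (-3.14 to -2.30). With the Chga UMIs of the barcode with most of them taken out in each library, and the member totals kept, the ratio was -2.93. At least 2 UMIs of Chga were found in 9 anti-PD-1 members, 7 of them with at least 2 of Esm1, and in 15 control members, 8 of them with Esm1. Timp3, a matrix-bound inhibitor of metalloproteinases that also blocks VEGF binding to its receptor, had 46 UMIs in 19 anti-PD-1 members and 315 UMIs in 24 control members, 142 of these in 1 barcode. Its log2 ratio was -2.50 (-2.98 to -2.06), and -1.01 without the LLC and macrophage limits. It was -2.21 without the Timp3 UMIs of the barcode with most of them in each library.

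**Figure D4:**
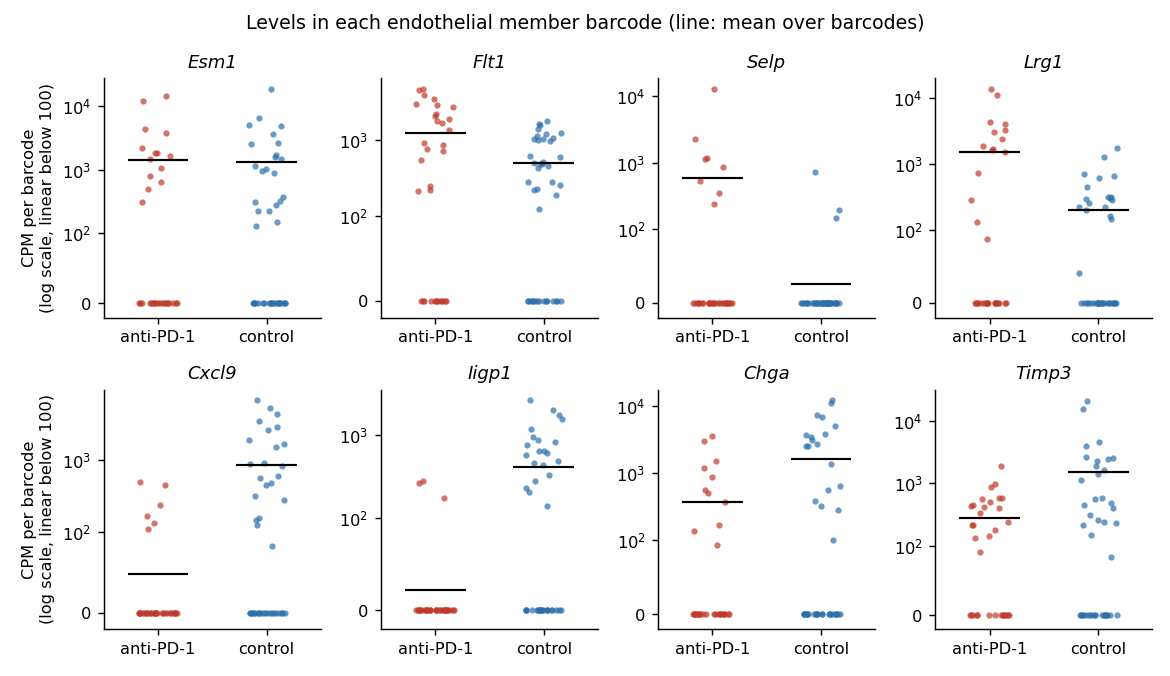
Each point is 1 member barcode with its CPM of the gene on an axis that is logarithmic above 100 and linear below, anti-PD-1 (33 members) left of control (42 members), and the line is the mean over barcodes. Cxcl9 was detected in 6 anti-PD-1 and 22 control members, Iigp1 in 3 anti-PD-1 and 21 control members and Selp in 8 anti-PD-1 and 3 control members, and a single anti-PD-1 barcode lies far above the others for Selp.

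Several venous and leukocyte-recruiting genes were higher in the anti-PD-1 members, and many of their UMIs lay in 1 barcode. Of 13 measured venous and postcapillary genes, 7 lay above and 6 below the median gene. Of the 13, 5 were over 2-fold higher (background 2.67%) and 1 over 2-fold lower (background 4.56%). Their median log2 ratio was 0.56 and turned to -0.38 with LLC markers below 250 CPM. Vwf, the von Willebrand factor gene on this list, had 34 UMIs in anti-PD-1 and 41 in control members (0.00, -0.70 to 0.69). Apoe, also on the list, had 66 in anti-PD-1 and 139 in control members (-0.80, -1.25 to -0.37). Selp, P-selectin, had 131 UMIs in 8 anti-PD-1 members and 7 UMIs in 3 control members. Its log2 ratio was 4.50 (3.41 to 5.84), and 2.83 without the LLC and macrophage limits. It was 3.13 without the Selp UMIs of the barcode with most of them in each library. Sele, E-selectin, lies near Selp on chromosome 1 (chr1:164039614-164058487 for Sele and chr1:164115264-164150026 for Selp). Sele had 78 UMIs in 2 anti-PD-1 members and 0 in control members, a log2 ratio of 4.97 with the control library set at a floor of 3 UMIs, and a lower limit of 4.64. Ackr1, the chemokine-binding receptor of venules, had 44 UMIs in 2 anti-PD-1 and 17 in 3 control members.

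A single anti-PD-1 barcode of 8016 UMIs held 102 of the 131 Selp UMIs, 77 of the 78 of Sele and 41 of the 44 of Ackr1. The same barcode held 49 of 49 UMIs of Csf3, which encodes the granulocyte growth factor G-CSF, 37 of 45 UMIs of the cytokine gene Il6, 111 of 274 of Lrg1 and 78 of 116 of Fbln2. Csf3 and Il6 were named after their values were seen. This barcode had 53 UMIs of the other endothelial markers, 3 of leukocyte markers and no Esm1.

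Lrg1, a glycoprotein that modifies TGF-beta signalling in vessels, was higher beyond that barcode. It had 274 UMIs in 15 anti-PD-1 and 61 UMIs in 18 control members, 1344 CPM in anti-PD-1 against 248 CPM in control members. Its log2 ratio was 2.44 (2.03 to 2.86), and 2.58 without the Lrg1 UMIs of the barcode with most of them in each library. Fbln2, a fibulin of the vessel wall, was at 568.8 CPM in anti-PD-1 and 85.39 CPM in control members (2.74, 2.06 to 3.48). It was detected in 11 anti-PD-1 and 5 control members. Fibroblast barcodes also had it, at 192.8 CPM in the anti-PD-1 and 469.2 CPM in the control library (-1.28). In members the Fbln2 ratio was 2.71 without the Fbln2 UMIs of its top barcodes and 1.98 without the LLC and macrophage limits. Aplnr, the apelin receptor, had 128 UMIs in 14 anti-PD-1 and 64 UMIs in 13 control members (1.27, 0.83 to 1.73). With LLC markers below 250 CPM the ratios were 0.83 for Fbln2, 0.82 for Aplnr and -2.50 for Ackr1. Vcam1, an integrin ligand of activated endothelium, was lower, with 24 UMIs in anti-PD-1 and 108 in control members, a ratio of -1.90, but the ratio was 0.41 without the LLC and macrophage limits. Icam1 gave 87 UMIs in anti-PD-1 and 131 in control members (-0.32, -0.73 to 0.08), and a ratio of 0.80 without those limits.

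Esm1 and Selp, a tip cell and a venous marker, were not found together at 2 UMIs each. At least 2 UMIs of Esm1 were found in 14 anti-PD-1 and 15 control members, and at least 2 of Selp in 6 anti-PD-1 and 2 control members, with no barcode holding both in either library. Apln, the apelin ligand, reached 2 UMIs in 13 anti-PD-1 and 20 control members, its receptor Aplnr in 11 anti-PD-1 and 10 control members, and both together in 2 anti-PD-1 and 6 control members. The summed tip cell list ran from 0 to 90280 CPM per barcode with a median of 9379 CPM in anti-PD-1 members, and from 0 to 106400 CPM with a median of 12300 CPM in control members. The tip cell list had 16 of 19 measured genes above the median gene and a median log2 ratio of 0.19. That median turned to -0.29 among barcodes with no C1qa or C1qb UMI. Summed over its measured genes and all members, the list was at 29250 CPM in anti-PD-1 and 20640 CPM in control members (0.50, 0.45 to 0.56). Igfbp3, an IGF-binding protein made by tumour endothelium, was its most abundant gene, with 2918 UMIs in anti-PD-1 and 1770 in control members (0.99, 0.91 to 1.08). Angpt2 had 150 UMIs in anti-PD-1 and 297 in control members (-0.71, -1.01 to -0.43). The vasodilator peptide gene Adm had 79 UMIs in anti-PD-1 and 202 in control members (-1.08), and a ratio of -0.49 without the deepest barcode of each library.

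Among the VEGF receptors, Flt1 stood apart. Flt1 encodes VEGFR1, which binds VEGF-A and PlGF and also acts as a decoy, and it had 302 UMIs in 21 anti-PD-1 members and 139 UMIs in 27 control members, 1481 CPM in anti-PD-1 against 565.2 CPM in control members. The gene lies on chromosome 5 (chr5:147561604-147726438). Its log2 ratio was 1.39 (1.09 to 1.69), 1.42 without the Flt1 UMIs of its top barcodes and 1.09 without the LLC and macrophage limits. Kdr, the main signalling receptor VEGFR2, was at 480.6 CPM in anti-PD-1 and 422.9 CPM in control members (0.18, -0.23 to 0.60). Of 12 measured VEGF pathway genes, Flt1 alone was past 2-fold, a share near the 7.23% of all measured genes. The angiopoietin receptor gene Tek had 37 UMIs in anti-PD-1 and 32 in control members (0.48, -0.24 to 1.21), and the Notch receptor gene Notch1 had 139 in anti-PD-1 and 116 in control members (0.53, 0.17 to 0.90).

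Of the other genes with the highest ratios, Inhbb, the activin beta-B chain, had 264 UMIs in anti-PD-1 and 114 in control members (1.48, 1.16 to 1.81). Insr, the insulin receptor, had 85 in anti-PD-1 and 38 in control members (1.43, 0.86 to 2.02), and Bcam, a laminin receptor, had 98 in anti-PD-1 and 47 in control members (1.33, 0.81 to 1.86). The ratio of Insr was 0.83 with LLC markers below 250 CPM, and that of Bcam 0.56 among barcodes with no C1qa or C1qb UMI. The ratio of Bmp2 depended on the deepest anti-PD-1 barcode. This morphogen gene had 119 UMIs in anti-PD-1 and 37 in control members (1.96), but 80 of the 119 lay in that barcode and the ratio was 0.56 without the deepest barcode of each library.

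All 17 measured basement membrane genes lay above the median gene, with a median log2 ratio of 0.48, and 1 passed 2-fold (background 2.67%). Together they took 71610 CPM in anti-PD-1 members and 50960 CPM in control members. Fn1, fibronectin, had 1801 UMIs in anti-PD-1 members, 901 of them in 1 barcode, and 1016 in control members (1.10, 0.98 to 1.21). It was the gene past 2-fold, and its ratio was 0.48 without the Fn1 UMIs of its top barcodes. The ratio was 0.50 without the LLC and macrophage limits and -1.51 among barcodes with no C1qa or C1qb UMI. Col4a1, a collagen IV chain, had 3786 UMIs in anti-PD-1 and 3229 in control members (0.50). Col18a1, the source of endostatin, had 578 in anti-PD-1 and 391 in control members (0.83, 0.65 to 1.02). In LLC tumour barcodes Col18a1 was at 2290 CPM in the anti-PD-1 and 1383 CPM in the control library (0.73). Lamc1, a laminin chain, had 407 UMIs in anti-PD-1 and 322 in control members (0.61). For the whole list the median log2 ratio was 0.16 in LLC tumour barcodes and -0.40 in macrophages. The list median was -0.07 among the 20 anti-PD-1 and 13 control barcodes with no C1qa or C1qb UMI.

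Hypoxia and immediate early genes mostly lay below the median gene in the anti-PD-1 members. Of 16 measured hypoxia and glycolysis genes, 12 lay below the median gene and 3 were over 2-fold lower (background 4.56%), with a median of -0.43, close to the -0.40 of LLC tumour barcodes and the -0.46 of macrophages. Pfkfb3, a glycolytic activator used by sprouting endothelium, had 27 UMIs in anti-PD-1 and 74 in control members (-1.18, -1.88 to -0.53), and a ratio of -0.27 without the LLC and macrophage limits. Lactate dehydrogenase A, Ldha, had 78 in anti-PD-1 and 179 in control members (-0.93). Of 3 genes above the median gene, the stress-induced gene Ndrg1 alone was past 2-fold, with 77 UMIs in anti-PD-1 and 43 in control members (1.11, 0.55 to 1.68). Its ratio was 0.35 without the Ndrg1 UMIs of the barcode with most of them in each library. That barcode held 38 of the 77 in anti-PD-1 members. Of 15 immediate early and heat shock genes, 13 lay below the median gene, with Egr1 at 17 UMIs in anti-PD-1 and 85 in control members (-2.05), a ratio that was -0.32 without the LLC and macrophage limits. The list's median was -0.38 in members and -0.62 in LLC tumour barcodes. The cycle genes Mki67 and Top2a had 23 UMIs each in anti-PD-1 and 34 and 43 UMIs in control members, and no difference was detectable at this depth (-0.29, -1.12 to 0.51, and -0.63, -1.43 to 0.13).

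**Figure D5:**
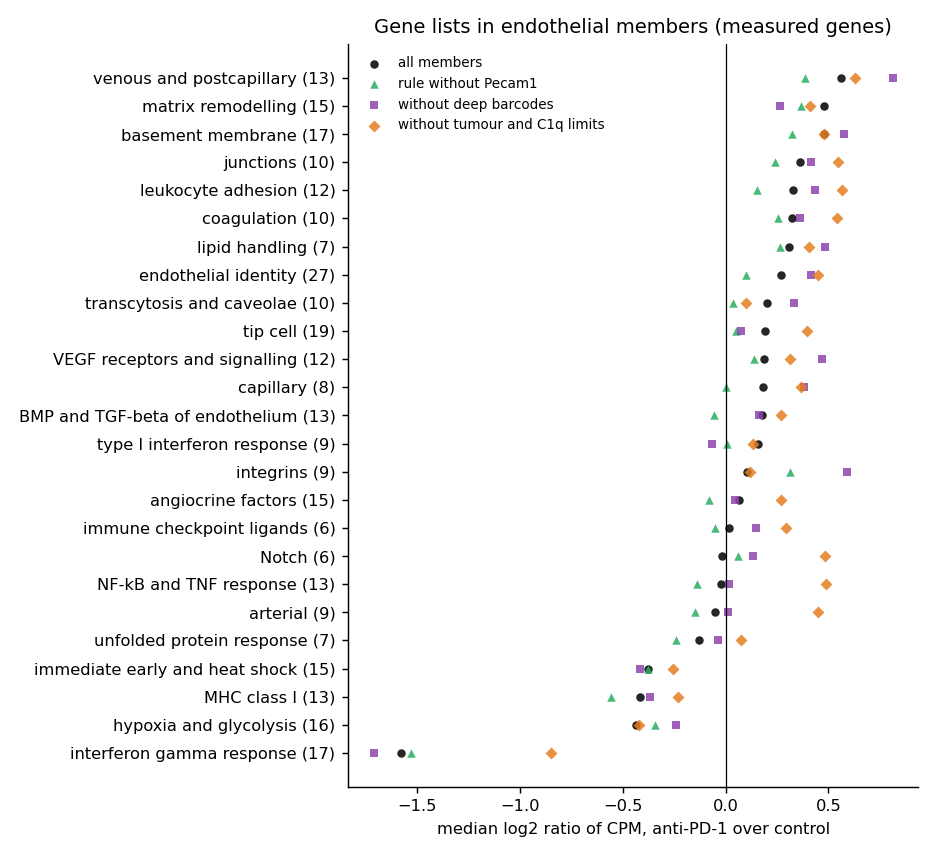
Each row is a gene list with at least 5 measured genes, with the number measured in brackets, and the axis is the median log2 ratio of CPM, anti-PD-1 over control. Black circles are all members (33 and 42 barcodes), and the other symbols show the rule without Pecam1, without barcodes over 3 times the median depth, and without the LLC and C1q limits. The interferon gamma list lies lowest under each of them, at -1.58 for all members and -0.85 without the limits.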

How the data were processed

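The deposited matrices hold whole-number UMI counts for each gene and barcode, and the file headers name Cell Ranger as their source. In the labels, the protocol names the 10x Flex probe kit and also a 3' protocol. The submitters' processing notes name Cell Ranger 7.0.1 and mm10, and the matrix header names version 9.0.1. Member counts were summed per library and divided by the members' total to give CPM. The log2 ratio is anti-PD-1 over control, with an exact 95% interval from the conditional binomial, and shares have Clopper-Pearson intervals. A library at 0 was set to a floor of 3 UMIs. PCR and cell sampling are not covered by these intervals. A gene was measured with at least 50 UMIs over both libraries, and called past 2-fold. Named genes were the 10 highest and 10 lowest ratios with at least 100 UMIs, leaving out genes over 5 times higher in another class of at least 50 cells, 15 genes highest against other cells, up to 4 genes of each list and a fixed set. Some of them are not reported here. Members and lists were chosen with earlier results of these data known. Other classes were assigned by marker lists. No doublet caller was run, and mixed barcodes were left out as an alternative. The ratio and its interval were tested on simulated data. Python 3.11.15, numpy 2.4.6, scipy 1.17.1 and pandas 2.3.3 were used. Promoters came from RefSeq GRCm38.p6.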

Additional observations from a re-analysis of the deposited data

How the results depend on the processing

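No paired analysis was possible because each group is 1 library, and no library could be left out. Of 513 list medians under the alternatives, 479 lay inside the 95% interval of the main median over its genes and 53 changed sign. Of 2605 gene ratios, 2197 lay inside the counting interval of the main ratio, and 148 changed sign, 5 of them of genes past 2-fold. The cause of these changes was not tested, beyond fewer barcodes or genes where an alternative left some out. The difference in share was -0.489 points with no limit on C1qa and C1qb, -0.97 with neither limit, and reversed to 0.0574 with no C1qa or C1qb UMI (20 and 13 members). Genes over 2-fold higher and lower numbered 90 and 185 with no LLC marker limit, 17 and 29 with no C1qa or C1qb UMI, 178 and 460 with no C1q limit, 193 and 336 with neither limit, 12 and 24 after thinning to 2000 UMIs, 16 and 34 with at least 100 UMIs per gene and 240 and 366 with at least 20. The lower count was 59 with LLC markers below 250 CPM, and the higher count 91 with barcodes weighted equally. With no LLC marker limit the medians were 0.50 for endothelial identity, 0.53 for junctions, -0.30 for MHC class I and 0.55 for basement membrane. With LLC markers below 250 CPM they were 0.22 for junctions, 0.03 for tip cell, 0.02 for VEGF, 0.27 for basement membrane and -0.31 for NF-kB. With no C1qa or C1qb UMI they were -0.29 for tip cell, -2.78 for interferon gamma, -0.85 for MHC class I and -0.07 for basement membrane. With no C1q limit they were 0.54 for identity, 0.65 for junctions, 0.68 for Notch, -0.55 for type I interferon and 0.62 for basement membrane. With neither limit they were 0.51 for identity, 0.56 for junctions, -0.22 for MHC class I and 0.49 for NF-kB. Thinning gave 0.50 for identity, 0.56 for junctions and 0.08 for tip cell. Leaving out mixed barcodes gave 0.22 for junctions and 0.06 for tip cell, and equal weights gave 0.19 and 0.04. The tip cell median was 0.06 at 2000 CPM of the rule genes, 0.05 without Pecam1 and 0.05 without barcodes over 3 times the median depth, and the last gave 0.55 for basement membrane. At least 3 UMIs of the rule genes gave -0.29 for MHC class I. The genes past 2-fold that changed sign were Ackr1 (-2.50 with LLC markers below 250 CPM), Bmp2 (-1.06) and Fn1 (-1.51) with no C1qa or C1qb UMI, Pf4 (0.47 with no C1q limit) and Vcam1 (0.41 with neither limit). The alternatives with neither limit, with at least 3 rule genes, without the deepest barcode of each library and without a gene's UMIs in its top barcode were chosen after seeing the data. The last of these kept the other UMIs of that barcode in the member totals. With 75 barcodes, genes under 50 UMIs were not measured.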
